A study of Mus musculus with 6 samples.

Results

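The Sonic hedgehog pathway was followed through 9 genes in the cerebellum of newborn mouse pups: the ligand Shh, the receptor Ptch1, the co-receptor Boc, the ligand-binding antagonist Hhip, the membrane transducer Smo, the transcription factors Gli1, Gli2 and Gli3, and the Gli inhibitor Sufu. These genes were chosen by name, as every probe outside the array's controls whose gene name in the scanner files was 1 of the 9. The rule found 14 probes for the 9 genes, of 55681 probes carrying 34797 gene names. Ptch1, Smo, Gli1, Sufu and Hhip had 2 probes each, and the other genes had 1.

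The dams were C57BL/6J mice aged 8 to 10 weeks that received an amino acid-based AIN-93G diet from a week before mating until the pups were born. The control diet held folic acid (FA) at 2 mg/kg and the test diet held it at 20 mg/kg, so the control pups were FA-supplied as well. RNA of pups at postnatal day 1 (P1) was pooled from 3 pups of 1 sex, each from a different dam, and hybridised to a single-colour array. There was 1 array of male pups and 1 of female pups at 2 mg, and 2 arrays of each sex at 20 mg, 6 in all. The replicate is therefore the pool, and the 2 mg groups had no replicate of their own. The second pools at 20 mg came from a different batch of pups, per the study's methods. One label field names the tissue as whole brain, where the titles and the methods give cerebellum. Of marker lists checked on each array, the granule cell lineage had 8 of 8 genes well above background on all arrays but female 20 mg replicate 2, where 5 of 8 were. Forebrain markers were also present, with 9 of 9 well above background on the female 2 mg array and a mean log2 signal from 6.57 to 9.22 over the arrays.

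Sonic hedgehog is a secreted protein that, in the newborn cerebellum, is made by Purkinje cells and drives the division of granule cell precursors in the external granule layer. Ptch1 holds Smo inactive until a hedgehog ligand binds it, after which Smo acts in the primary cilium to release the Gli factors from Sufu. Gli1, Ptch1 and Hhip are themselves transcribed in response to Gli activity and are widely used as readouts of the pathway. In a piece of tissue such as this, fewer cells of a type and less RNA per cell cannot be told apart.

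The arrays were not equal in quality. The array labelled female 20 mg replicate 2 had 23.3% of its probes well above background, against 51.1% to 71.9% on the other 5, and a median processed signal of 5.14 against 39.0 to 162. Its mean Spearman correlation with the other arrays was 0.657, against 0.861 to 0.889 for the rest. The control arrays of both sexes shared 1 slide with female 20 mg replicate 1. Another slide, scanned on an earlier day, held male 20 mg replicate 1 beside female 20 mg replicate 2, and male 20 mg replicate 2 was on a slide of its own. In males no slide held both doses, so slide and dose cannot be told apart there.

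Some of the pathway's values turned on which probe was read, so the first or most telling 30 bases of 5 of the 60-base probes are given, from the array's own annotation and written 5′ to 3′ in mm9. The Shh probe is shown because it was spotted 10 times, the Ptch1 pair because its probes gave dose differences of opposite sign in males, and the Smo pair because the brighter probe holds a repeat. The capitals in the Smo sequence mark each run of ACACACAC that does not overlap an earlier one, and the other sequences hold no such run.
Shh, probe A_52_P49014, minus strand, chr5:28783983-28784042, bases 1 to 30: aatttattattgtgtgaactgtactcacag
Ptch1, probe A_52_P598605, minus strand, chr13:63610298-63610357, bases 1 to 30: catttggatgttttaatttgtaaaagaaaa
Ptch1, probe A_55_P2107292, minus strand, chr13:63612879-63612938, bases 1 to 30: ttcatgtcaggtgtgagaggagggactcaa
Smo, probe A_55_P2121484, plus strand, chr6:29710919-29710978, bases 25 to 54: ACACACACacacatacactctcACACACAC
Smo, probe A_51_P258766, plus strand, chr6:29711225-29711284, bases 1 to 30: aatgtctagtcattttcatagtgccccaca

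The Ptch1 probes start 2581 bases apart and the Smo probes 306 bases apart. Which exon or untranslated region each probe lies in was not analysed here. In what follows each gene is given by its brightest probe, the one with the highest mean over the 6 arrays, unless another probe is named. Levels are log2 signals after quantile normalization with a floor of 3.32, and a dose difference is the mean of the 20 mg arrays of a sex minus its 2 mg array on that scale. A gene was called past the fold rule when this difference reached 2.5-fold, or 1.32 on the log2 scale, and its probe passed a filter on variation. Since the probes differ in how well they bind, no gene's level was set against another's.

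**Figure D1:**
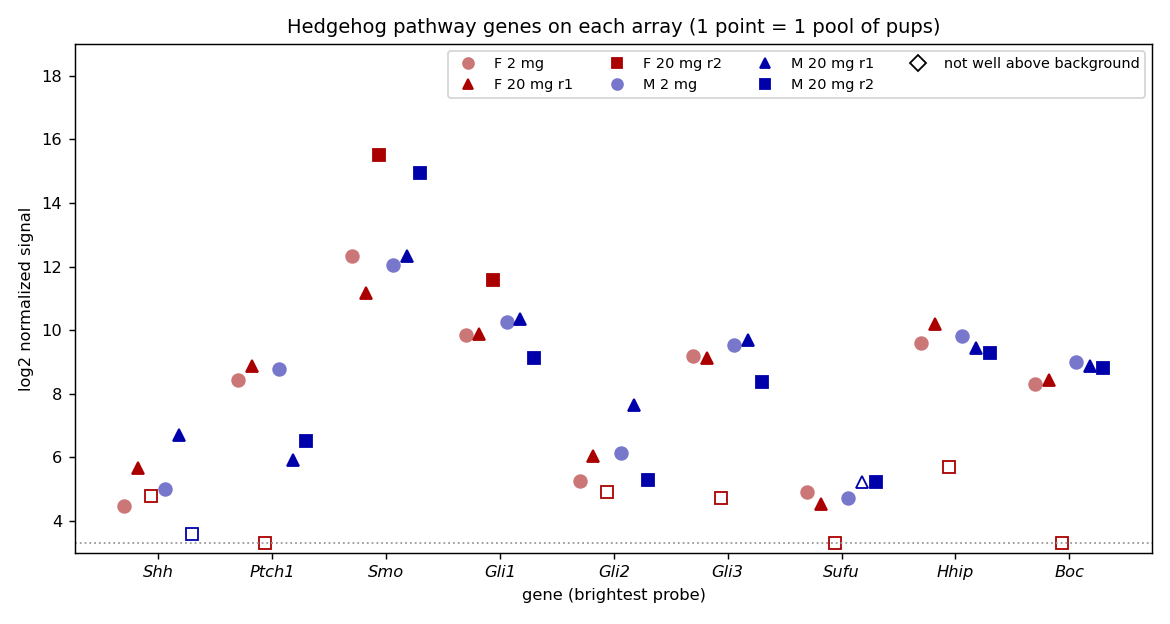
Log2 normalized signal of the brightest probe of each of the 9 pathway genes (x axis) on the 6 arrays, 1 point per pool of 3 pups, F for female and M for male; open symbols were not well above background and the dotted line is the floor of 3.32. Of the 9 genes, 7 have an open symbol on female 20 mg replicate 2, and Ptch1 is the gene for which both male 20 mg arrays lie far under the male 2 mg array.

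All 9 genes were well above background on both 2 mg arrays and on female 20 mg replicate 1. Of all 25504 genes tested, 24415 were on the female 2 mg array, 24923 on the male 2 mg array and 25359 on female 20 mg replicate 1. On each of the male 20 mg arrays 8 of 9 members were, beside 20430 of all genes on replicate 1 and 21892 on replicate 2. On female 20 mg replicate 2 only Smo and Gli1 were, beside 10700 of all genes. By probe, 3 of 14 passed on that last array, where 23.3% of all probes did.

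In males, Ptch1 was lower and Smo higher by ≥2.5 fold in the 20 mg group, and no other member was called. Among all 25504 genes the fold rule called 3.16% lower and 1.44% higher in males, so 1 of 9 in each direction stands against those shares. In females, Ptch1, Gli3, Hhip and Boc were called lower and none higher, against 15% of all genes lower and 4.92% higher. None of those 4 genes was well above background on female 20 mg replicate 2. With that array left out and the other 5 normalized anew, none of the 9 was called lower in females, against 2.59% of all genes, and Shh was called higher, against 1.74%. That Shh difference was 1.43, from 1 array at each dose. For the same arrays normalized with all 6 it was 1.21, which is under 2.5-fold. With limma, 0 of 9 members and 0% of all genes passed an adjusted p of 0.05 for the dose effect in males, in females or in both sexes together, for the difference of the dose effect between the sexes, or for sex. Unadjusted p-values under 0.05 were reached by 74 of 37211 probes in males and 161 in females, and by 0 of the 12 member probes in either sex. Over all probes these counts are far under what a p of 0.05 would pass with no effect anywhere. The 0 of 12 therefore says little about the members. The smallest unadjusted limma p of a member probe was 0.244 in males and 0.244 in females. The fit had 2 residual degrees of freedom. Limma's p-values and intervals also draw on a prior spread taken from all probes tested, so they do not rest on these 2 alone.

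**Figure D2:**
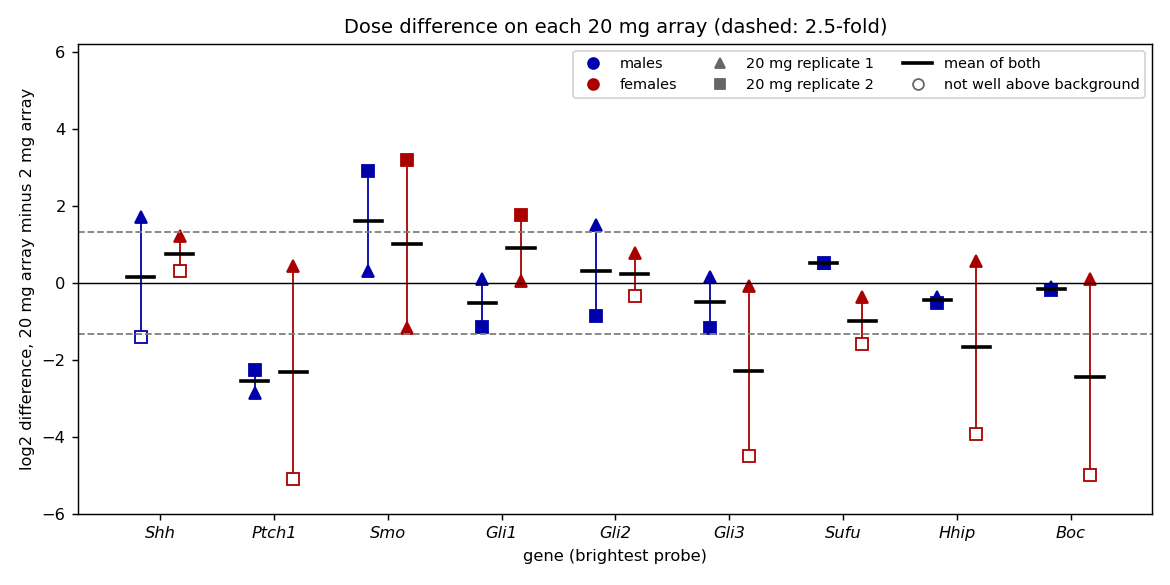
Log2 difference of each 20 mg array from the 2 mg array of its sex (y axis) for the 9 genes, with triangles for replicate 1, squares for replicate 2, a black bar for their mean and dashed lines at 2.5-fold; open symbols were not well above background. The male Ptch1 pair lies at -2.86 and -2.26, and the female pairs of Ptch1, Gli3, Hhip and Boc each span more than 4 log2 units.

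Shh, the ligand, was read by 1 probe spotted 10 times on each array. In males its level was 5.01 at 2 mg and 6.71 and 3.60 at 20 mg, so the 20 mg arrays lay on either side of the 2 mg array. The mean dose difference was 0.14 on the log2 scale with an SD of 2.20 between the 20 mg arrays (n = 2). In females its level was 4.47 at 2 mg and 5.68 and 4.77 at 20 mg, a mean difference of 0.76 with an SD of 0.64 (n = 2). Both female 20 mg arrays were above the 2 mg array, but the probe was not well above background on replicate 2 of either sex.

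The repeat spots show how much of this is noise within an array. On the female 2 mg array the processed signals of the 10 spots ran from 30.8 to 52.4 with a median of 36.6, and on female 20 mg replicate 1, on the same slide, the 8 spots used ran from 158 to 179 with a median of 167. The spots of these arrays did not overlap, and after normalization the difference was 1.21 on the log2 scale. Of the female 2 mg spots, 8 of 10 were well above background. Spot signals are not scaled between arrays. The median over all probes was 93.2 on the female 2 mg array and 162 on female 20 mg replicate 1. It was 119 on the male 2 mg array and 40.9 on male 20 mg replicate 1. The spots of the male 2 mg array ran from 50.9 to 94.0 and those of male 20 mg replicate 1 from 105 to 149, again without overlap. On male 20 mg replicate 2 they ran from 5.09 to 12.9 and on female 20 mg replicate 2 from 4.36 to 5.85. These spots are repeats within 1 pool and say nothing of the spread between pools. Between the male 20 mg arrays the spread for Shh was larger than that between spots on any array. Those arrays differ in slide and scan day as well as in pool, so these parts of the spread cannot be told apart.

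**Figure D3:**
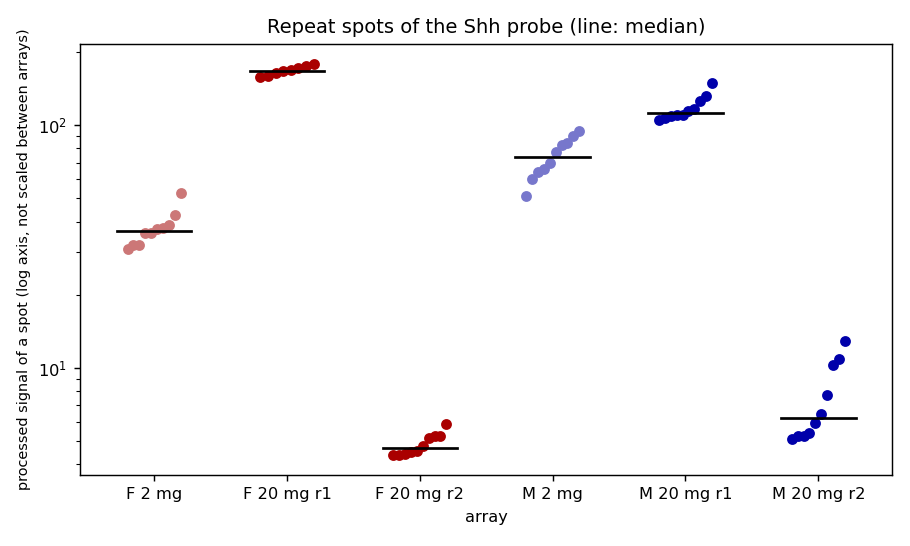
Processed signal of each repeat spot of the Shh probe (log y axis, not scaled between arrays) on the 6 arrays (x axis), with outlier spots left out and the line at the median. The spots of a 20 mg replicate 1 array all lie above those of the 2 mg array of its sex, and the spots of both replicate 2 arrays lie below them.

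Ptch1, the hedgehog receptor, gave the only dose difference of a member that was past 2.5-fold in the same direction on each of both 20 mg arrays of a sex. In males its brightest probe read 8.78 at 2 mg and 5.92 and 6.52 at 20 mg, and it was well above background on all 3 arrays. The difference was -2.56 on the log2 scale, or 5.90-fold lower, and the SD between the 20 mg arrays was 0.43 (n = 2). Both male 20 mg arrays lay under the single male 2 mg array, as they did for 24.8% of all genes. The share of all genes lower by ≥2.5 fold on each of both male arrays was 1.43%. The limma p was 0.292 before adjustment and 1 after it, with a 95% interval from -7.49 to 2.37. In females the same probe read 8.42 at 2 mg and 8.86 and 3.32 at 20 mg, the last being the floor. The first array was 0.44 above the 2 mg array and the second 5.10 under it, so the mean of -2.33 rests on 1 array where the probe was not well above background. Without that array the female difference was 0.45.

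The other Ptch1 probe did not follow the first. In males it read 6.71 at 2 mg and 5.75 and 8.60 at 20 mg, well above background each time. Its mean difference was 0.47 with an SD of 2.01 (n = 2), against -2.56 for the brightest probe. The brightest probe was 2.07 above the other on the male 2 mg array, 0.16 above it on male 20 mg replicate 1 and 2.08 under it on replicate 2. The array's annotation lists different transcripts for these probes, and whether they read different transcripts was not tested. Over the probes of a gene averaged, the male Ptch1 difference was -1.05, which is under 2.5-fold.

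**Figure D4:**
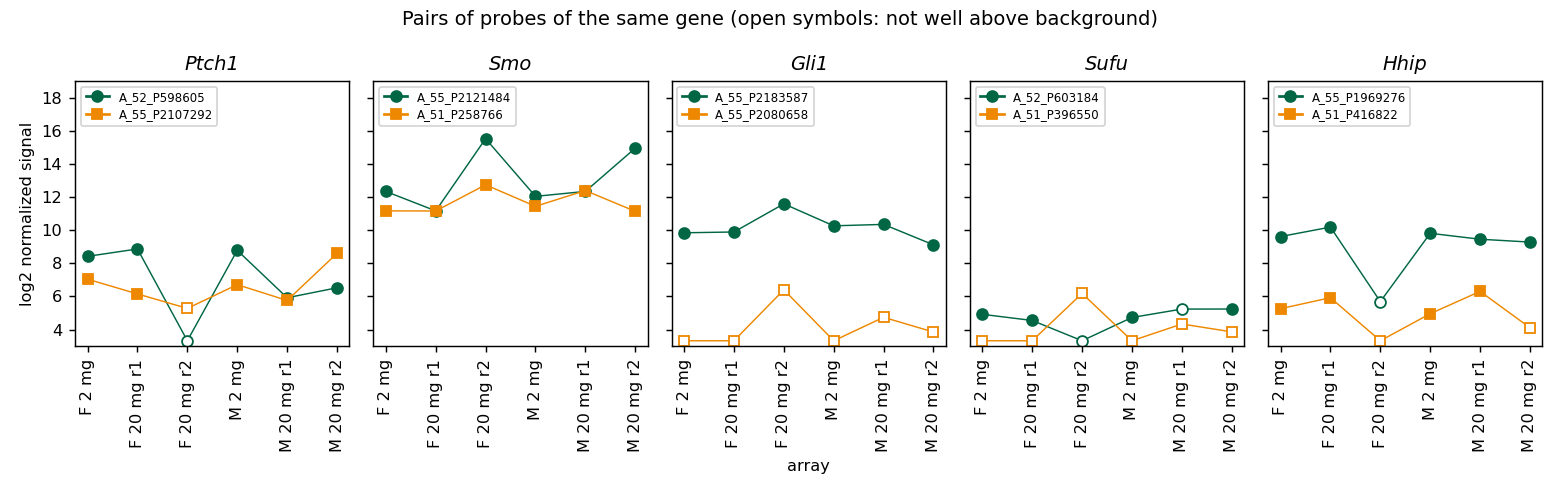
Log2 normalized signal (y axis) of both probes of Ptch1, Smo, Gli1, Sufu and Hhip on the 6 arrays (x axis), F for female and M for male; open symbols were not well above background. The Ptch1 probes cross between arrays, and the brighter Smo probe leaves the other by 2.78 and 3.81 log2 units on the replicate 2 arrays.

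Boc, a co-receptor that presents the ligand to Ptch1, was close to level in males. Its level was 9.0 at 2 mg and 8.88 and 8.80 at 20 mg, a difference of -0.16 with an SD of 0.05 (n = 2). The limma interval ran from -4.62 to 4.30, since it uses a spread shared with the female arrays, so a change of several fold was not detectable in this design. In females Boc read 8.32 at 2 mg and 8.42 and 3.32 at 20 mg, with the floor again on replicate 2. Its called mean of -2.45 became 0.11 without that array.

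Hhip, which binds the ligand at the cell surface and keeps it from Ptch1, was called lower in females as well. In males it read 9.81 at 2 mg and 9.45 and 9.28 at 20 mg, both under the control, with a difference of -0.44 and an SD of 0.12 (n = 2). Female pools gave 9.61 at 2 mg and 10.18 and 5.69 at 20 mg. The called mean of -1.68 joins a difference of 0.57 on replicate 1 with one of -3.93 on replicate 2, and was 0.56 without replicate 2. The dimmer Hhip probe, 3551 bases away, had a male difference of 0.25, from 1.35 on replicate 1 and -0.85 on replicate 2.

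Smo, the transducer that Ptch1 holds in check, was well above background with both probes on all 6 arrays. In males its brightest probe read 12.04 at 2 mg and 12.34 and 14.95 at 20 mg. The mean difference was 1.60 with an SD of 1.85 (n = 2), or 3.04-fold higher, and it came from replicate 2, since replicate 1 was 0.30 above the control. Without male 20 mg replicate 2 it was 0.30. The limma p before adjustment was 0.244. In females this probe read 12.34 at 2 mg and 11.16 and 15.52 at 20 mg, so replicate 1 was lower and replicate 2 higher than the control. The other Smo probe read 11.44 in males at 2 mg and 12.39 and 11.13 at 20 mg, a difference of 0.32 with an SD of 0.89 (n = 2). In females it read 11.16 at 2 mg and 11.16 and 12.74 at 20 mg. The high value of male replicate 2 was thus found with the brighter probe and not with its neighbour on the same transcript.

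The brighter Smo probe is 1 of 163 tested probes, 0.438% of 37211, that hold the run ACACACAC on the probe's own strand. The run was chosen after the values of the Smo probes were seen, and the opposite strand and other repeats were not searched. On female 20 mg replicate 2 the median difference of these 163 probes from the 2 mg array was 2.71 on the log2 scale, against -0.49 for all other tested probes. On male 20 mg replicate 2 it was 1.49 against -0.17. On male 20 mg replicate 1 it was 0.50 against 0.09, and on female 20 mg replicate 1 it was -0.60 against 0.03. The brighter Smo probe thus differed from the 2 mg array of its sex in the direction of the other repeat probes' median on each of the 4 arrays. The part of the repeat in the Smo value was not tested.

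**Figure D5:**
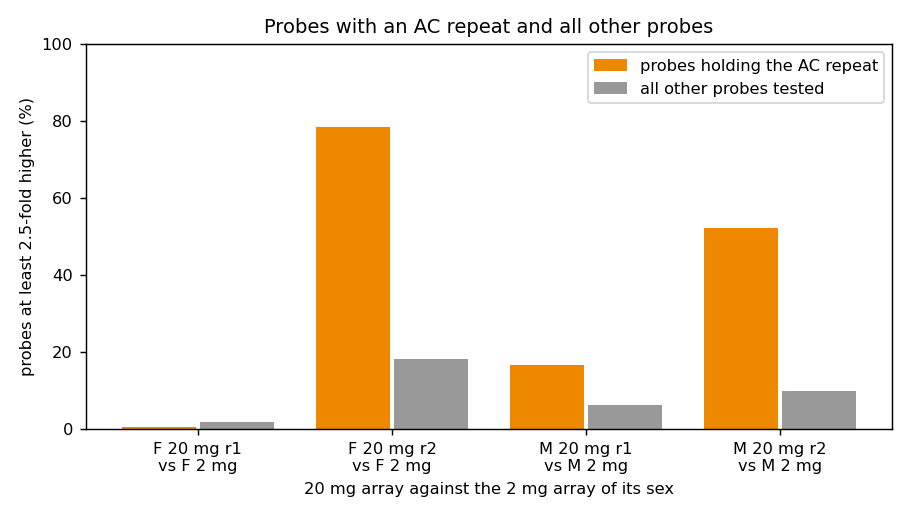
Percent of tested probes at least 2.5-fold higher on a 20 mg array than on the 2 mg array of its sex (y axis), for the 163 probes with ACACACAC and the 37048 without it, F for female and M for male. The shares are 78.5% and 18.2% on female replicate 2 and 52.1% and 9.84% on male replicate 2.

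Gli1, a transcriptional activator and a target of the pathway, was not called in either sex. In males it read 10.26 at 2 mg and 10.35 and 9.11 at 20 mg, 1 array close to the control and 1 under it. The difference was -0.53 with an SD of 0.87 (n = 2) and a limma p of 0.686 before adjustment. In females it read 9.84 at 2 mg and 9.89 and 11.59 at 20 mg, a difference of 0.90 with an SD of 1.20 (n = 2). Gli1 was the other gene, besides Smo, that was well above background on all 6 arrays. The second Gli1 probe was not well above background on any array, with levels from the floor to 6.40, and did not enter the fit.

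Gli2, the main activator of the pathway's first response, read 6.15 in males at 2 mg and 7.65 and 5.28 at 20 mg, on either side of the control. In females it read 5.25 at 2 mg and 6.04 and 4.91 at 20 mg, again on either side. The mean differences were 0.31 in males with an SD of 1.68 and 0.22 in females with an SD of 0.80 (n = 2 each). Neither exceeded the spread between the 20 mg arrays of its sex.

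Gli3, which is cut to a repressor when the pathway is off, read 9.53 in males at 2 mg and 9.69 and 8.37 at 20 mg, a difference of -0.51 with an SD of 0.93 (n = 2). Female pools gave 9.20 at 2 mg and 9.12 and 4.71 at 20 mg. Replicate 1 was 0.07 under the control and replicate 2 was 4.49 under it, not well above background, and the called mean was -2.28. Without that array the female difference was -0.07.

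Sufu, which binds Gli proteins in the cytoplasm, read 4.73 in males at 2 mg and 5.23 and 5.24 at 20 mg, a difference of 0.51. The SD between those arrays was 0.0026 (n = 2), although the probe was not well above background on replicate 1. In females it read 4.92 at 2 mg and 4.55 and 3.32 at 20 mg, a difference of -0.98 with an SD of 0.87 (n = 2). All male 20 mg arrays thus lay above their control and all female ones under theirs. The second Sufu probe was well above background on none of the 6 arrays.

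The size of such differences in these arrays can be read from comparisons of single arrays. On slide 1, female 20 mg replicate 1 against female 2 mg put 0 of 9 members past 2.5-fold, where 4.18% of all genes were. Female and male at 2 mg, on the same slide and without a difference in dose, put 0 of 9 members and 1.45% of all genes past it, with 7 of 9 members lower in the female pool. Male 20 mg replicate 1 and replicate 2 against the male 2 mg array put 3 members each past it, with 19.4% and 18.0% of all genes. The 2 male 20 mg arrays set against each other, at the same dose, put 3 of 9 members and 37.3% of all genes past it. Female 20 mg replicate 2 against the female 2 mg array put 7 of 9 members and 51.1% of all genes past it.

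By direction alone, both 20 mg arrays lay above the control for 2 of 9 members in males, Smo and Sufu, where 19% of all genes did, and below it for 3, Ptch1, Hhip and Boc, where 24.8% did. In females they lay above it for 2, Shh and Gli1, where 22% did, and below it for Gli3 and Sufu, where 28.3% did. No member was higher by ≥2.5 fold on each of both arrays of a sex, where 0.322% of all genes were in males and 0.51% in females, and none was lower on each of both female arrays, where 1.5% were. The members' median dose difference was -0.16 in males, against -0.07 over all genes, and -0.98 in females, against -0.17. Without female 20 mg replicate 2 the female medians were 0.11 and 0.01. Between the sexes the dose effect of no member probe passed limma, with unadjusted p from 0.443 to 0.974.

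Disagreement between probes was not particular to the pathway. Of 7547 genes with at least 2 tested probes, the 2 brightest gave male dose differences of opposite sign in 42.7% and female ones in 41.6%. Of the 3 members with 2 tested probes, Ptch1 and Hhip did so in males and none did in females.

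A further 36 genes of the pathway, from ligand release to transcriptional targets, were all tested, and none was past 2.5-fold on both 20 mg arrays of a sex. In males 0 of 36 were called by the fold rule, where 3.16% of all genes were lower and 1.44% higher. In females 8 were called lower and 1 higher, where 15% of all genes were lower and 4.92% higher. On female 20 mg replicate 2, 14 of 36 were well above background, as were 10700 of all 25504 genes, and none of the 8 called lower was. Without that array 0 of those 8 were called, their differences running from -0.58 to 0.68. Then 2 of the other genes were called lower, Kif7 of the cilium at -1.55 and Prkaca, a subunit of protein kinase A, at -1.35, where 2.59% of all genes were, and 0 of 36 were called higher. Kif7 and Prkaca were singled out after their values were seen. The median dose difference of all 36 genes was 0.02 in males and -0.77 in females, and -0.09 in females without that array. By role, the 8 female calls that rest on that array comprised 3 of 6 genes for ligand release, 3 of 10 of the cilium and 2 of 7 targets, with 0 of 8 for Gli processing, 0 of 3 receptors and 0 of 2 ligands. None of the 36 passed limma in either sex. The study's own tables of neural genes list Csnk1a1 as lower by ≥2.5 fold in both sexes, and Prkacb, Gsk3b and Bcl2 in females. Here the brightest probe of Csnk1a1 differed by -0.35 in males and -0.16 in females. In females Prkacb differed by -1.34 but did not pass the filter on variation. Gsk3b differed by -0.74 there, and Bcl2 was among the 8 called lower. Why the calls differ was not tested.

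Gas1, a co-receptor anchored in the membrane, was the 1 gene called higher in females, at 1.99, from -0.09 on replicate 1 and 4.08 on replicate 2. Without female 20 mg replicate 2 the female difference was -0.11. Its male differences were -0.04 and 2.14. Cdon, the relative of Boc, differed by 0.02 in males, from 0.74 and -0.69. In females it differed by 0.33, and by 0.70 without female 20 mg replicate 2.

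The targets Mycn, Ccnd1, Ccnd2 and Atoh1 mark dividing granule cell precursors. In males Mycn read 10.89 at 2 mg and 12.09 and 10.36 at 20 mg, a difference of 0.33, and Ccnd1 read 10.79 and then 11.71 and 9.99, a difference of 0.06. For both, the 20 mg arrays lay on either side of the control. Ccnd2 read 10.49 and then 11.37 and 10.72, both above it, a difference of 0.56. Atoh1, the transcription factor that defines these precursors, differed by 0.14 in males, from 0.60 on replicate 1 and -0.33 on replicate 2. In females it differed by -0.83, and by -0.55 without female 20 mg replicate 2. In females Ccnd1 was called lower at -2.32, with -0.59 on replicate 1 and -4.04 on replicate 2, an array on which its probe did not rise well above background. Without that array its difference was -0.58. The female Mycn mean of -0.57 joins 0.24 on replicate 1 with -1.38 on replicate 2, and was 0.22 without replicate 2. The female Ccnd2 mean of -0.10 joins 0.92 with -1.13, the latter from a probe not well above background, and was 0.89 without replicate 2.

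Of the other ligands, Dhh differed by -0.31 in males, from 0.17 on replicate 1 and -0.80 on replicate 2. Ihh differed by 0.28 in males, from 1.40 and -0.84, and its probe was well above background on neither male 20 mg array. In females Dhh differed by -1.28 and Ihh by -0.74, with both probes short of well above background on replicate 2 and Dhh at the floor there. Without that array the female differences were -0.15 for Dhh and -0.11 for Ihh.

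Markers of other tissue moved between arrays as well. The mean log2 signal of 6 choroid plexus markers was 7.65 on the female 2 mg array and 10.18 and 9.56 on the female 20 mg arrays, and that of 6 brainstem and spinal cord markers was 10.42 there and 9.60 and 7.28. On female 20 mg replicate 2, 5 of the 6 choroid plexus markers and 1 of the 6 brainstem and spinal cord markers were well above background. In males the 9 forebrain markers stood at 6.94 at 2 mg and at 8.32 and 6.70 at 20 mg, with 5 of 9 well above background on replicate 2. The 8 granule lineage markers stood at 10.80 and then at 11.55 and 10.55 in males, and at 10.35 and then at 10.21 and 10.46 in females. Their part in the values of the pathway genes was not tested.

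The genes whose signal was most like that of Shh over the 6 arrays, among 14933 candidates, were Tmem218, Pan2, Lamtor3, Bbs4 and Smchd1, with Pearson r from 0.992 to 0.997. Over the 5 arrays without female 20 mg replicate 2 they were Sec63, Smchd1, Mtpap, Lamtor3 and 2410137F16Rik, so 2 of 5 were on both lists. For Gli1 they were Rbpms2, Fam101a, Bdh2, 6230400D17Rik and Drosha, with r from 0.996 to 0.997, and none of them was among the 5 most alike without that array. With 6 points, and with slide and depth shared between them, these correlations are a description.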

How the data were processed

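The deposited intensities come from Agilent Feature Extraction 10.7.3.1, run by the authors, which subtracts background and does not scale between arrays. The log2 values of the authors' deposited table were quantile normalized and floored in their array software, and served here as an alternative. Other deposited columns give flags for outlier spots and for spots well above background.

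Outlier spots were left out, processed signals were averaged per probe, log2-transformed, quantile normalized across all 6 arrays, and values under 10 were set to 10. The study's methods give a filter on variation in log intensity, with limits on p and on the percent missing, and a threshold of 2.5-fold. The filter was built here as a chi-square comparison of a probe's variance with the median variance (p of 0.05 or less, at most 50% missing), a form the methods do not state, which left 15247 probes. Limma 3.58.1 (R 4.3.3) fitted 4 groups of sex and dose on 37211 probes that stood well above background on 2 or more arrays, with a trend, and p-values were adjusted by Benjamini-Hochberg over all of them. Scripts were tested on simulated data. The array software's flag stands in for depth, and the number of arrays limits precision.

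All members and 8 further genes were always named, and the other further genes were to be named only when past 2.5-fold on both 20 mg arrays of a sex. Outside this rule, Kif7 and Prkaca were named for their calls without female 20 mg replicate 2. Csnk1a1, Prkacb, Gsk3b and Bcl2 were named because the study's tables list them. The members and lists were chosen with earlier results of these data known, and the marker and pathway lists come from general knowledge. One gene of the pathway list is not reported here. Alternatives were other scalings, background corrections and floors, the deposited table, no filter, the mean over a gene's probes, a replicate block, scan day and leaving out each array. No column of another series was found (0 columns).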

Additional observations from a re-analysis of the deposited data

Results flagged for a closer look

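Sufu was the 1 member whose 20 mg arrays all lay above the control in one sex and all under it in the other. The female minus male dose difference was -1.49 on the log2 scale, from -0.98 in females and 0.51 in males. The limma test of this difference gave an adjusted p of 1.00, so it did not pass. The probe was not well above background on male 20 mg replicate 1. Nor was it on female 20 mg replicate 2, where it was at the floor of 3.32. The female difference changed sign under 3 of 14 alternatives, to 0.75 after a 75th percentile shift, 0.22 with the mean over all probes of the gene and 0.0055 with normexp. No explanation was tested.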

How the results depend on the processing

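The count of members past 2.5-fold was 2 in males and 4 in females. It was 1 in males and 1 in females after a 75th percentile shift, which moved the median dose difference of all genes in females from -0.17 to 0.37, and 2 in females both with normexp and with the mean signal without background correction. With the mean over all probes of a gene it was 0 in males, and with scan day as a term 0 in males and 1 in females. Leaving out 1 array at a time gave 1 to 2 in males, the 1 being without male 20 mg replicate 2, and 1 to 5 in females, the 1 being without female 20 mg replicate 2. Without that array the female differences changed sign to 0.45 for Ptch1, 0.56 for Hhip and 0.11 for Boc, against -4.68, -3.85 and -4.58 without female 20 mg replicate 1. The male Ptch1 difference was below 0 under all 14 alternatives, from -2.91 to -1.03. Sufu in males and Shh, Gli1 and Gli3 in females kept their sign under all 14 as well. The alternatives reuse the same arrays, so a kept sign does not set Ptch1 apart. With a replicate block the count was 1 in males and 0 in females, and Smo in males was -0.14. The replicate numbers were shared by the 20 mg groups of both sexes, but their differences correlated at only 0.0871 over probes, so the numbers were not treated as a pairing. The cause of these changes was not tested. No member passed limma under any alternative. Probes of other genes did pass for the dose effect under some, as in females after a 75th percentile shift or with normexp and in males with a replicate block. The 0% of all genes given above therefore holds for the main processing, and the shares under the alternatives are not given here.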
